A study of Mus musculus with 10 samples.

Results

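Of the 24538 genes in the count tables, 10 were examined here: the receptors Trem1, Trem2, Treml4 and Tarm1, the adapter Tyrobp, and Apoe, Gpnmb, Spp1, Lgals3 and Cd9, which are often read as genes of lipid-associated macrophages. They were listed with earlier results of these data known, as TREM receptors with their adapter, Tarm1, and genes of a published kind of macrophage programme. All 10 were compared between macrophages of lung metastases and macrophages of normal lung. Metastasis-associated macrophages (MAMs) came from wild type C57BL6/J female mice that received E0771-LG, a mouse breast cancer line, through the tail vein at 6 to 8 weeks of age. Metastases under 1 mm across were dissected from perfused lungs and pooled from 2 to 4 mice per sample, so a MAM sample averages several animals, while resident alveolar macrophages (RAMs) came from the lungs of wild type mice without tumour cells. Both groups were 8 to 10 weeks old, and both were digested with the transcription inhibitors alpha-amanitin and actinomycin D present. Both were sorted for CD45, F4/80 and MRC1, against LY6C and for high forward scatter (FSC hi), MAMs being CD11B+ and CD11C- and RAMs the converse, and 5 libraries of each were sequenced. A sorted gate can hold more than one kind of macrophage, and in such bulk samples fewer cells that express a gene cannot be told apart from less RNA per cell. The groups differ at once in the sorted population and in the presence of metastases, and these cannot be told apart. Words such as rose, fell, increase and moved compare MAMs with RAMs and describe no change within cells.

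TREM receptors are immunoglobulin-like receptors of myeloid cells with short cytoplasmic tails. Most of them signal through an adapter with an activation motif, chiefly DAP12, the product of Tyrobp, which hands the signal to the kinase SYK. TREM2 binds lipids, lipoproteins that carry apolipoprotein E, and the debris of dying cells, and in fat tissue, atherosclerotic plaques, brain and tumours it marks macrophages that take up lipid and express Apoe, Gpnmb, Spp1, Lgals3 and Cd9 together. TREM1 amplifies inflammatory responses of neutrophils and monocytes. Alveolar macrophages of the healthy lung clear surfactant and so handle much lipid without tumour cells nearby.

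Depth was high, and the genes of the sorting markers followed the labels. Between 55391447 and 87523247 reads per library were counted on genes in MAMs, and between 50746305 and 72150650 in RAMs. Levels are given as CPM, which scale the count of a gene to the normalised total of the 11571 genes tested in its library. A count of 0 allows up to 3 counts, which is 0.0431 to 0.0671 CPM depending on the library. Itgam, the gene of CD11B, stood at 6270 CPM in MAMs and 64.3 in RAMs, and Itgax, the gene of CD11C, at 171 and 991. Of 12 measured markers of alveolar macrophages, 11 were called lower in MAMs, and their summed level ran from 468 to 835 CPM in MAMs against 12893 to 15889 in RAMs, where Chil3 was the most abundant. All 12 markers of monocytes and interstitial macrophages were higher in MAMs, with sums of 12101 to 14202 CPM against 179 to 224. Itgam was the most abundant of them in both groups. The alveolar list holds Itgax and the monocyte list Itgam, so their part in these results is not independent of the sort. Each sample was an individual mouse or one pool, so p-values describe the spread between such samples.

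The 10 genes did not move as one. Tarm1, Apoe, Trem2, Spp1 and Gpnmb were higher in MAMs by more than 2-fold, Lgals3 and Tyrobp were higher by less, Trem1 and Treml4 did not pass the test, and Cd9 was lower. All 10 genes passed the filter on low values. Of these, 5 were called higher and 1 lower, where a call needs more than a 2-fold difference and, by the quasi-likelihood test of edgeR, a Benjamini-Hochberg p (adjusted over all genes tested) below 0.05. Across all genes tested, 30.3% were called, 15.3% higher and 15.1% lower. With the adjusted p alone, 7 of the genes passed as higher and 1 as lower, against 28.9% and 27.3% of all genes and 56.2% in either direction. The 5 MAM libraries lay above all 5 RAM libraries for 5 of the 10 genes, Tarm1, Apoe, Trem2, Spp1 and Lgals3, against 23.7% of all genes. They lay below for 1, Cd9, against 21.2%, and the groups were apart in either direction for 44.9% of all genes. Because the genes were listed with earlier results of these data known, these shares describe the list and do not test it. The median log2 fold change of the 10 genes was 1.14, against -0.02 over all genes.

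**Figure D1:**
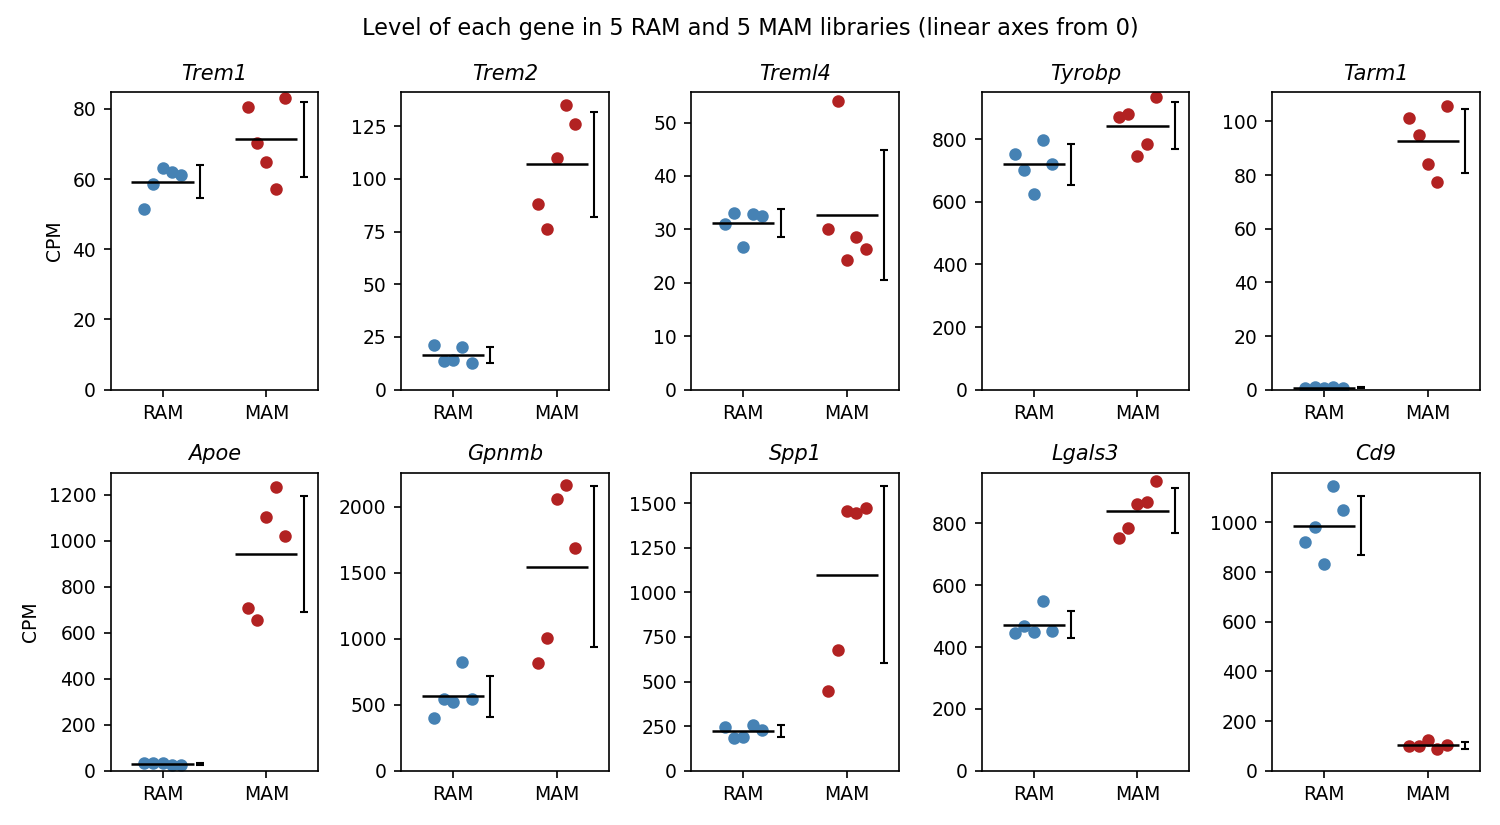
Level of each of the 10 genes in CPM (linear axes from 0) in the 5 RAM libraries (blue) and the 5 MAM libraries (red), with a line at the group mean and a bar of 1 SD beside the points. Tarm1, Apoe, Trem2, Spp1 and Lgals3 do not overlap between the groups with MAMs above, Cd9 does not overlap with RAMs above, and the other 4 genes overlap.

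Tarm1, Apoe, Trem2 and Spp1 were the 4 genes called higher whose groups did not overlap. Their promoter sequence is shown so that the regions upstream of these genes can be compared. The 250 bases before the start site of each gene are given 5′ to 3′ along the strand of the gene, from RefSeq on GRCm38.p6. Capitals mark a match to a searched motif on either strand.
Tarm1 (chr7:3502625-3502874, minus strand): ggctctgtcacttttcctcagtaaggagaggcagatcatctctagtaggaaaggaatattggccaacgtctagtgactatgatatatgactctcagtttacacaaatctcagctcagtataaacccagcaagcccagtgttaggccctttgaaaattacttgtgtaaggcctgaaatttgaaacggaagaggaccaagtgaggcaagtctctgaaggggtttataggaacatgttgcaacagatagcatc
Apoe (chr7:19699189-19699438, minus strand): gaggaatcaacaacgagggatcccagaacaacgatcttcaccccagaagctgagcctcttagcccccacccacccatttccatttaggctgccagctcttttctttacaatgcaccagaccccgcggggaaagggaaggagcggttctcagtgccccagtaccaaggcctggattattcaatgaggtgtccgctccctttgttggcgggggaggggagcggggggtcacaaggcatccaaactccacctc
Trem2 (chr17:48346151-48346400, plus strand): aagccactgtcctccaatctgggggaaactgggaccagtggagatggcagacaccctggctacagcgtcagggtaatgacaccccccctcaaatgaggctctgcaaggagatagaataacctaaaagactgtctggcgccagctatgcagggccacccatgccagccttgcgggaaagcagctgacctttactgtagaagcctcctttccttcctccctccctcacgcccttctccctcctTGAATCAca
Spp1 (chr5:104434861-104435110, plus strand): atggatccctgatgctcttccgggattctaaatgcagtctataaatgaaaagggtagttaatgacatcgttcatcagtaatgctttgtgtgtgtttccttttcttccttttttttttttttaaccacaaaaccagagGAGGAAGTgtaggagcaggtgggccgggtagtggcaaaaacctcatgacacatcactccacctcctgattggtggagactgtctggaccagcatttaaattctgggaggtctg
The motifs searched, on both strands, were TGANTCA, the AP-1 site, CACGTG, the E-box core bound by MITF and TFE factors, CATGTG, a related core, and GAGGAAGT, a site of the myeloid factor PU.1. The Trem2 window held 1 match to TGANTCA, beginning 9 bases before the start. Its centre is A, so it is not the AP-1 consensus. With any base at the centre, TGANTCA stood in 6.85% of the 27025 promoters of the same length. The Spp1 window held 1 match to GAGGAAGT, beginning 113 bases before the start, against 2.42% of promoters. The windows of Tarm1 and Apoe held none of the motifs. A promoter entry was found for 9 of the 10 genes, and no window of the 9 held CACGTG, which was found in 6.04% of all promoters. CATGTG stood in the windows of Treml4, 171 bases before the start, and Cd9, 38 bases before it, against 12.2% of promoters. A match is a description of the letters and not evidence of binding.

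Trem2, the lipid-sensing receptor, had 87.8, 76.1, 110.0, 135 and 126 CPM in MAM replicates 1 to 5. In RAM replicates 1 to 5 it had 21.2, 13.8, 14.0, 20.1 and 12.9 CPM. Every MAM library was therefore over 3 times the highest RAM library. The means were 107 ± 24.9 and 16.4 ± 3.96 (SD, n = 5 each), a fold change of 6.52. The log2 fold change was 2.71 (standard error, SE, 0.192, 95% interval 2.29 to 3.12, adjusted p = 1.1e-08 in the edgeR quasi-likelihood test). By an exact permutation test of the libraries, two-sided, p was 0.00794, the smallest that 5 against 5 can give, as it was for each gene whose groups did not overlap. Trem2 lies on the plus strand of chromosome 17 at 48346401 to 48354147 (GRCm38, GENCODE M21) and overlaps no other annotated gene.

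Tarm1, which encodes an activating receptor of myeloid cells that pairs with the FcR gamma chain rather than DAP12, differed most of the 10 genes. Its levels in MAMs were 101, 95.05, 84.2, 77.3 and 106 CPM, from 3766 to 7359 counts per library. In RAMs its levels were 0.599, 1.11, 0.580, 1.02 and 0.533 CPM, from 25 to 74 counts. The means of 92.7 ± 11.8 and 0.769 ± 0.275 CPM (SD, n = 5 each) gave a log2 fold change of 6.90 (SE 0.226, 95% interval 6.41 to 7.38, adjusted p = 1.6e-12, the edgeR quasi-likelihood test). The MAM libraries were all near the top of the scale and the RAM libraries all near its base, with no value between. The size of this difference has a limit. Of the 115 genes with a mean over 1000 CPM in MAMs, the one lowest in RAMs stood at 0.912% of its MAM level, and Tarm1 in RAMs stood at 0.829% of its own. When 1% of the level in the other group was subtracted from each library, the log2 fold change of Tarm1 was 10.49, and on log2(FPKM + 1) it was 5.66. The size thus depended on the setting. Such a subtraction can only widen this gap and a pseudocount can only narrow it, so neither tests the direction. Tarm1 (chromosome 7, 3486500 to 3502624, minus strand) overlaps the annotated gene Gm44165, and the strand setting of the read counting is not given in the sources used here.

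Trem1 levels were close in the groups. In MAMs they were 80.5, 70.4, 65.0, 57.3 and 83.2 CPM, and in RAMs 51.5, 58.5, 63.2, 62.0 and 61.0. Of the MAM libraries, 4 were above every RAM library, and MAM replicate 4 lay below 4 of the RAM libraries. The log2 fold change was 0.27 (SE 0.115, 95% interval 0.02 to 0.51) and did not pass (adjusted p = 0.0615 in the edgeR test). On log2(FPKM + 1) limma gave 0.30 with an adjusted p of 0.0405, which passed, as it did without MAM replicate 4, where edgeR gave 0.34 with an adjusted p of 0.0174. Trem1 overlaps AC241601.2, and the counts could not be assigned to a strand.

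Treml4, whose product binds dead cells, showed no difference of a constant sign. Its levels were 30.1, 54.0, 24.3, 28.6 and 26.3 CPM in MAMs and 31.1, 33.0, 26.8, 33.0 and 32.5 in RAMs. One MAM library, replicate 2, was above all others, and the other 4 MAM libraries lay within or below the range of the RAMs. The log2 fold change was 0.06 (SE 0.196, 95% interval -0.36 to 0.48, adjusted p = 0.808 in edgeR's test). It was -0.20 without MAM replicate 2 and -0.11 under upper-quartile normalisation, and passed in neither. The 95% interval excludes a fold change of 2 in either direction.

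The related receptors of the same chromosomal cluster were listed with these genes, 8 in all, of which 6 were in the count tables and 5 passed the filter. The 6 genes Trem1, Trem3, Treml4, Treml2, Trem2 and Treml1 lie in this order on the plus strand of chromosome 17, from 48232768 to 48367176, over 134.409 kb. Trem1, Trem3 and Treml4, the 3 genes at one end, did not pass the test, and the next along, Treml2 and Trem2, were called higher. Treml2 had 87.8, 112, 117, 125 and 116 CPM in MAMs and 1.78, 2.55, 1.10, 2.04 and 4.07 in RAMs. The groups were far apart, and the log2 fold change of 5.597 (SE 0.280, adjusted p = 1.9e-10 in the edgeR test) was above that of Trem2. Its level in RAMs was 2.07% of that in MAMs. Trem3, a receptor that pairs with DAP12, was low and overlapped, at 5.26 ± 3.56 CPM in MAMs and 7.94 ± 1.91 in RAMs (SD, n = 5 each, log2 fold change -0.60, adjusted p = 0.217 in edgeR's test). MAM replicate 1 had the highest Trem3 level of all 10 libraries, 11.2 CPM, and without it Trem3 was called lower in MAMs, at a log2 fold change of -1.08 (adjusted p = 0.0152, edgeR). Treml1, a platelet receptor, did not pass the filter, with 25 to 106 counts in MAMs and 7 to 33 in RAMs.

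**Figure D2:**
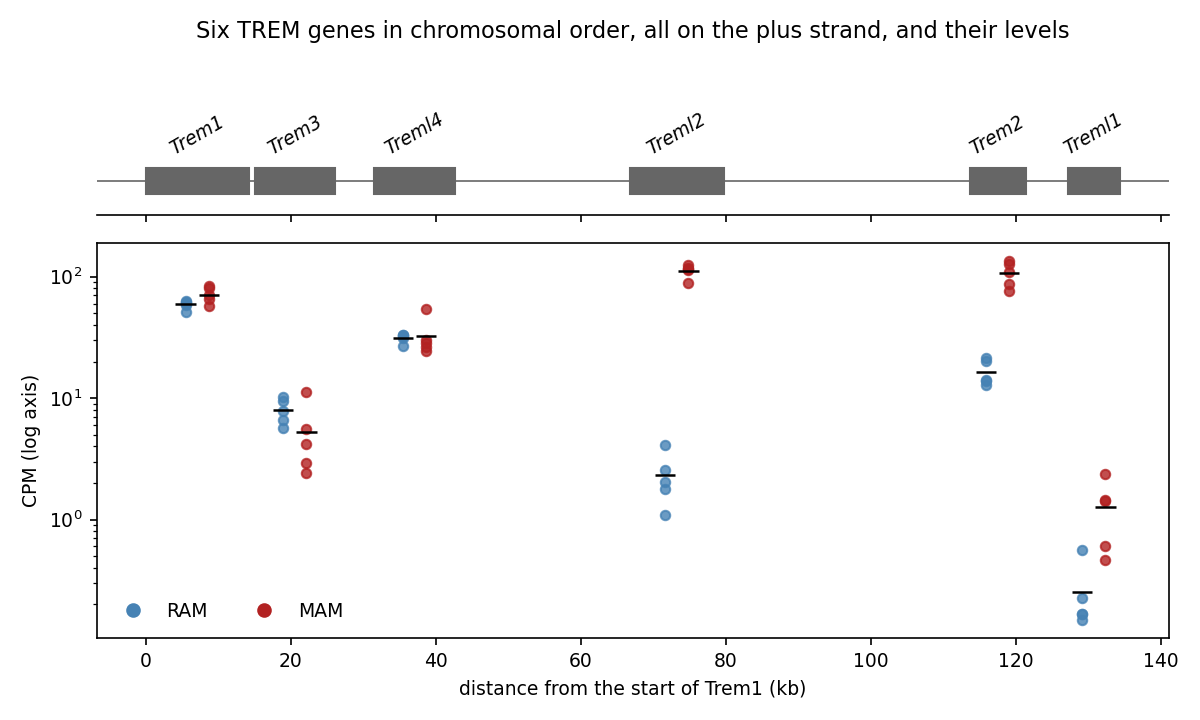
Top, the 6 TREM genes drawn to scale by distance in kb from the start of Trem1. Bottom, their levels in CPM (log axis) in each RAM library (blue) and MAM library (red), with lines at the group means, at the position of each gene. Trem1, Trem3 and Treml4 overlap between the groups, whereas Treml2 and Trem2 are separated.

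Tyrobp, the DAP12 adapter, was among the most abundant transcripts in both groups. FPKM, which scale by transcript length as well as by depth, placed it at rank 51 of 11571 genes in MAMs and 46 in RAMs, with means of 2224 and 1968. Its levels were 869, 879, 747, 785 and 935 CPM in MAMs and 753, 701, 625, 798 and 719 in RAMs. Of the MAM libraries, 3 were above every RAM library, and the other 2 lay within the RAM range. The log2 fold change was 0.23 (SE 0.0811, 95% interval 0.06 to 0.40, adjusted p = 0.0257 in the edgeR test), and by an exact permutation test, two-sided, p was 0.0397. The threshold on the adjusted p was no longer passed under upper-quartile normalisation, where the log2 fold change was 0.06 and the adjusted p 0.509 (edgeR), and when any of MAM replicates 2 and 5 or RAM replicates 2 and 3 was left out (adjusted p 0.0547 to 0.0786, edgeR). The adapter thus differed much less than Trem2 did.

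Genes of adapter signalling were called at about the shares of all genes. Of 29 tested, 4 were called higher and 4 lower, against 15.3% and 15.1% of all genes, and 15 passed as higher and 9 as lower, against 28.9% and 27.3%, with a median log2 fold change of 0.29. The 3 largest increases were in Lat2, a scaffold protein of myeloid and B cells (134 CPM in MAMs against 4.23 in RAMs, log2 fold change 4.99), Vav3, a guanine nucleotide exchange factor (148 against 21.4, 2.79), and the kinase gene Src (3.89 against 0.810, 2.26). The 3 largest decreases were in Lat, the scaffold best known from T cells, with 0 to 33 counts per MAM library and 75 to 313 per RAM library, in Vav2 (45.2 against 176 CPM, log2 fold change -1.96) and in Plcg1, a phospholipase (8.11 against 19.5, -1.27). None of these 6 genes overlapped between the groups, but they were named for the size of their difference, and the groups were apart for 44.9% of all genes. On log2(FPKM + 1), which understates low genes, Src at 0.63 and Plcg1 at -0.76 were under 2-fold. Fcer1g, Hcst and Syk, the adapters and the kinase nearest to the receptors, lie outside the naming rule and were taken after their values were seen. Fcer1g, the FcR gamma chain with which Tarm1 pairs, stood at 1802 CPM in MAMs against 914 in RAMs, a log2 fold change of 0.98 (adjusted p = 6.9e-09 in edgeR's test), just short of a call. Without RAM replicate 4 or RAM replicate 5 it was called, at 1.01 and 1.00. Hcst, the DAP10 adapter, was low and did not pass, at 5.55 and 8.37 CPM (log2 fold change -0.59), but passed as lower without MAM replicate 2 (-0.79, adjusted p = 0.0375, edgeR). Syk passed as lower in MAMs, at 422 against 489 CPM, with a log2 fold change of -0.21.

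**Figure D3:**
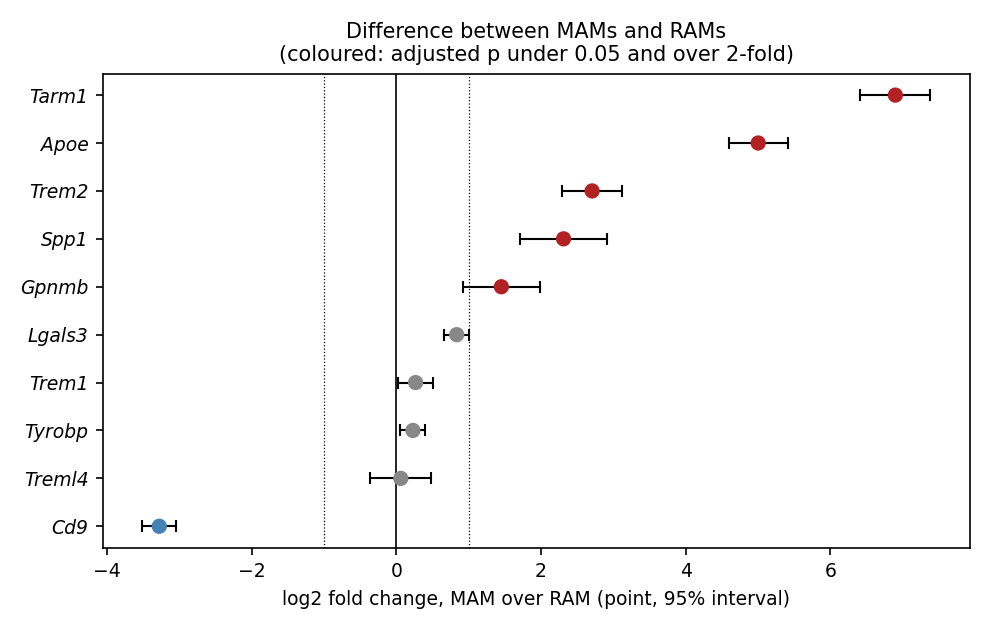
Log2 fold change of MAMs over RAMs for each of the 10 genes (edgeR), with 95% intervals; red and blue points were called higher or lower and grey points were not called, and dotted lines mark a fold change of 2. Tarm1 at 6.90 and Cd9 at -3.28 are the ends of the order, the intervals of Trem1, Tyrobp and Treml4 lie within the dotted lines, and those of Lgals3 and Gpnmb cross the upper one.

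Apoe, whose product carries lipid in lipoproteins and binds TREM2, had 706, 656, 1102, 1234 and 1020 CPM in MAMs. In RAMs its levels were 33.5, 31.6, 32.4, 24.2 and 25.5 CPM. The lowest MAM library was thus far above the highest RAM library. The means were 944 ± 253 and 29.5 ± 4.27 CPM (SD, n = 5 each), a fold change of 32.02. The log2 fold change was 5.00 (SE 0.190, 95% interval 4.59 to 5.41, adjusted p = 8.0e-12 in the edgeR test). Its level in RAMs was 3.12% of that in MAMs. By FPKM it ranked 76 of 11571 in MAMs and 1778 in RAMs. Apoe lies on the minus strand of chromosome 7 at 19696109 to 19699188.

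The partners of Apoe in lipid transport did not follow it as a group. Of 13 tested, 4 were called higher and 5 lower, against 15.3% and 15.1% of all genes, with a median log2 fold change of -0.01. The largest increases were in Apoc2, the cofactor of lipoprotein lipase (40 to 67 counts per MAM library against 0 to 2), in Pltp, a phospholipid transfer protein (255 against 77.4 CPM, log2 fold change 1.72), and in Abca1, a cholesterol exporter (1004 against 335, 1.58). Apoc1, a neighbour of Apoe in the apolipoprotein cluster, changed the other way, with 11 to 60 counts in MAMs and 390 to 979 in RAMs. Sort1, a sorting receptor, fell from 1625 CPM in RAMs to 66.4 in MAMs (log2 fold change -4.61). Abcg1, a second cholesterol exporter, fell from 3192 CPM to 456 (log2 fold change -2.81). The 2 exporters named here therefore moved in opposite directions.

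Apoe also stood in the list of ligands and sheddases of TREM receptors. There 5 of 10 genes, Apoe among them, were called higher and 0 lower, against 15.3% and 15.1% of all genes. The median log2 fold change was 1.00. Besides Apoe, the largest increases were in S100a9, Clu and Pglyrp1, which encode a neutrophil calcium-binding protein, clusterin and a peptidoglycan recognition protein. All 3 were low, with means in MAMs of 3.88, 2.23 and 2.86 CPM, and their groups overlapped. Clu lost its call with no filter (adjusted p = 0.0554, edgeR) and without any of MAM replicates 3 and 5 and RAM replicates 1, 2 and 5 (0.0578 to 0.0907). This count was 3 with no filter or with limma, and also 3 without MAM replicate 5, RAM replicate 1 or RAM replicate 2. The summed level of 10 neutrophil markers, S100a9 among them, was 124 to 312 CPM in the MAM libraries against 140 to 204 in the RAM libraries, with Csf3r the most abundant in both. Its part in the result was not tested.

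Spp1 encodes osteopontin, a secreted protein that binds integrins and CD44. Its levels were 445, 677, 1457, 1447 and 1473 CPM in MAMs and 248, 184, 189, 259 and 229 in RAMs. The groups did not overlap, but the MAM libraries fell apart, with replicates 1 and 2 well under the other 3. The means were 1100.0 ± 499 and 222 ± 33.9 CPM (SD, n = 5 each), and the log2 fold change was 2.31 (SE 0.280, 95% interval 1.71 to 2.91, adjusted p = 4.4e-06 in edgeR's test). Spp1 (chromosome 5, 104435118 to 104441050, plus strand) overlaps Gm42793. Of 8 receptors and receptor subunits of osteopontin tested, 4 were called higher and 0 lower, against 15.3% and 15.1% of all genes. By the adjusted p alone, 6 passed as higher and 1 as lower, against 28.9% and 27.3%. The 3 largest increases were in Itga9 (119 against 0.988 CPM, log2 fold change 6.92), Itgb3 (11.02 against 2.13, 2.37, groups overlapping) and Itgav (252.4 against 74.6, 1.76). The size for Itga9 has the limit given for Tarm1, its level in RAMs being a similarly small share of that in MAMs. Cd44, named after its values were seen, was the 1 that passed as lower, at 1825 CPM in MAMs against 3499 in RAMs (log2 fold change -0.94, adjusted p = 5.5e-09, edgeR).

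Gpnmb, a transmembrane glycoprotein of lysosomes, varied alongside. Its levels were 815, 1001, 2055, 2165.5 and 1686 CPM in MAMs and 401, 540, 517, 821 and 546 in RAMs. MAM replicate 1 lay below RAM replicate 4, and the other 4 MAM libraries were above every RAM library. The means were 1545 ± 611 and 565 ± 155 CPM (SD, n = 5 each), and the log2 fold change was 1.45 (SE 0.251, 95% interval 0.91 to 1.99, adjusted p = 1.5e-04 in the edgeR test). By an exact permutation test, two-sided, p was 0.0159. The difference was called, but with a fold change of 2 as the null hypothesis the adjusted p was 0.0552 (edgeR). Gpnmb is a known target of MITF and TFE factors, and all 4 genes of that family were tested. Tfe3 rose from 60.2 to 133 CPM (log2 fold change 1.15, and 0.98 under upper-quartile normalisation) and Mitf from 84.5 to 118 (0.49, passed and not called, groups overlapping). Tfeb fell from 45.8 to 20.9 CPM (log2 fold change -1.13) and Tfec from 236 to 51.1 (-2.21).

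Lgals3, which encodes galectin-3, a lectin that binds galactose-bearing sugars, was abundant in both groups. Its levels were 753, 785, 863, 871 and 938 CPM in MAMs and 446, 467, 447, 549 and 451 in RAMs. The groups did not overlap, and RAM replicate 4 stood above the other 4 RAM libraries. The difference was nevertheless under 2-fold, the log2 fold change being 0.83 (SE 0.0811, 95% interval 0.66 to 1.01, adjusted p = 3.9e-07 in the edgeR test). Of 6 galectins and partners tested, all passed, 5 as higher and 1 as lower, against 28.9% and 27.3% of all genes. Of the 6, 2 were called higher and 1 lower, against 15.3% and 15.1%. Lgals3bp, the secreted binding partner of galectin-3, rose from 266 to 2125 CPM (log2 fold change 2.998), and Lgals9 from 87.9 to 642 (2.87). Lgals4 was near 0 in MAMs, with 0 to 19 counts per library, and had 87 to 401 in RAMs.

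Cd9, a tetraspanin of the cell surface often used to mark lipid-associated macrophages, was the 1 gene of the 10 that was lower in MAMs. Its levels were 97.6, 101, 122, 85.4 and 104 CPM in MAMs and 921, 981, 835, 1146 and 1049 in RAMs. Every RAM library was several times above every MAM library. The means were 102 ± 13.1 and 986 ± 119 CPM (SD, n = 5 each), 9.69 times lower in MAMs. The log2 fold change was -3.28 (SE 0.110, 95% interval -3.51 to -3.04, adjusted p = 1.9e-12 in edgeR's test). By FPKM, Cd9 ranked 61 of 11571 genes in RAMs and 740 in MAMs. Cd9 (chromosome 6, 125460266 to 125494791, minus strand) overlaps Gm28809 and Gm26728. Of 14 tetraspanins and partners tested, 4 were called higher and 3 lower, against 15.3% and 15.1% of all genes. Tspan3 rose from 1.85 to 113 CPM (log2 fold change 5.93), Cd63, a lysosomal tetraspanin, from 16.0 to 103 (2.69) and Cd37 from 28.3 to 150.3 (2.41). Ptgfrn, a partner protein of CD9, was lower as well, at 37.2 CPM in MAMs against 208 in RAMs (log2 fold change -2.48), as was Cd82 (11.03 against 29.5, -1.42).

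The order of the genes by FPKM differed between the groups. In MAMs it ran from Tyrobp (2224) through Apoe (1165), Spp1 (784), Lgals3 (705), Gpnmb (390), Trem2 (124), Cd9 (95.5), Tarm1 (90.3) and Trem1 (22.6) to Treml4 (19.5). Neighbours in that order whose libraries overlapped were Apoe and Spp1, Spp1 and Lgals3, Trem2 and Cd9, Cd9 and Tarm1, and Trem1 and Treml4. In RAMs it ran from Tyrobp (1968) through Cd9 (930), Lgals3 (402), Spp1 (158), Gpnmb (146), Apoe (36.7), Trem2 (20.3), Treml4 (18.1) and Trem1 (18.0) to Tarm1 (0.813). There, Spp1 overlapped Gpnmb, Trem2 overlapped Treml4, and Treml4 overlapped Trem1. Tyrobp was thus first in both groups, and Apoe and Cd9 changed places most. Together the 10 genes summed to 3985 to 6887 CPM in MAM libraries and 2750 to 3713 CPM in RAM libraries. These CPM rest on normalised totals, so the sums are not shares of the reads of a library.

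The wider list of lipid-associated macrophage genes, 44 genes with 7 of the 10 among them, was called higher more often than lower. Of the 44 tested, 22 were called higher and 6 lower, against 15.3% and 15.1% of all genes, and 31 passed as higher and 8 as lower, against 28.9% and 27.3%. The median log2 fold change was 1.00, and 0.97 over the other 37 genes, of which 18 were called higher and 5 lower. The largest increases among those 37 were in Syngr1, a synaptogyrin (217 to 975 counts per MAM library against 1 to 11), Mmp14, a membrane-bound matrix protease (246 against 2.32 CPM, log2 fold change 6.73), and Csf1, the macrophage growth factor (39.1 against 0.702, 5.79). The size for Mmp14 has the limit given for Tarm1, its level in RAMs being a similarly small share of that in MAMs. The largest decreases were in Atp6v0d2, a subunit of the proton pump of lysosomes (51.2 against 1731 CPM, log2 fold change -5.08), in Itgax (-2.54) and in Lpl, lipoprotein lipase (560 against 2255, -2.01). None of these 6 overlapped between the groups, but they were named for the size of their difference. The groups were apart for 44.9% of all genes. Of these 6, Atp6v0d2 and Itgax, both lower, also stood in the list of alveolar macrophage markers. CD11C, the product of Itgax, was used in the sort, so its difference is not independent of the gate.

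**Figure D4:**
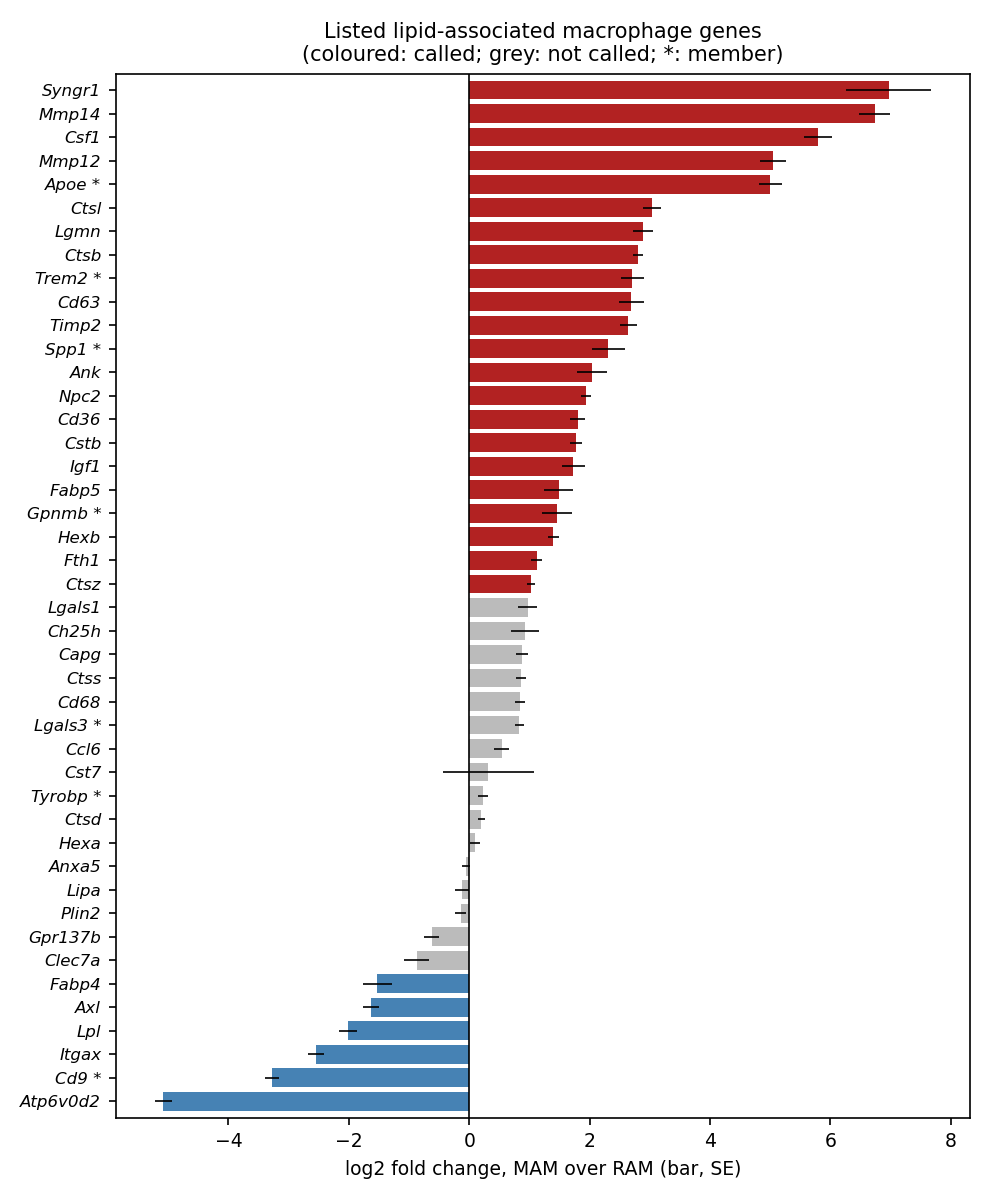
Log2 fold change of MAMs over RAMs, with SEs, for the 44 listed lipid-associated macrophage genes (edgeR); red bars were called higher, blue bars lower, grey bars were not called, and asterisks mark the genes described one by one. The list runs from Syngr1 at the top to Atp6v0d2 at the bottom, with 22 red and 6 blue bars.

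Within the MAMs, the genes differed in how much they varied. The SD of log2 CPM over the 5 MAM libraries was 0.802 for Spp1 and 0.635 for Gpnmb, above 88.2% and 82.2% of all genes, whereas it was 0.127 for Lgals3 and 0.131 for Tyrobp, above 14.3% and 15.5%. The median over all genes was 0.282. In RAMs the SD of Spp1 was 0.225 and that of Lgals3 0.126, at a median of 0.236. MAM replicates 1 and 2 held the 2 lowest levels among MAMs of each of Apoe, Gpnmb, Spp1, Trem2 and Lgals3. The same libraries had the 2 highest sums of the alveolar macrophage markers, 835 and 689 CPM against 468 to 597 in the other 3. They also had the 2 highest sums of the markers of monocytes and interstitial macrophages, 14202 and 13738 CPM against 12101 to 12650. Itgam, a gene of the sort, was part of these sums, at 6548 and 6844 CPM against 5848 to 6151. MAM replicates 1 and 2 had the 2 lowest sums of the neutrophil markers, 124 and 149 CPM against 218 to 312. The same held for the platelet markers, 349 and 522 CPM against 788 to 1048. Pf4, with a mean of 565 CPM in MAMs, made up most of the last of these, and 2 of the 6 platelet markers were under 1 CPM there. The part of these differences in the levels of the 5 genes was not tested.

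**Figure D5:**
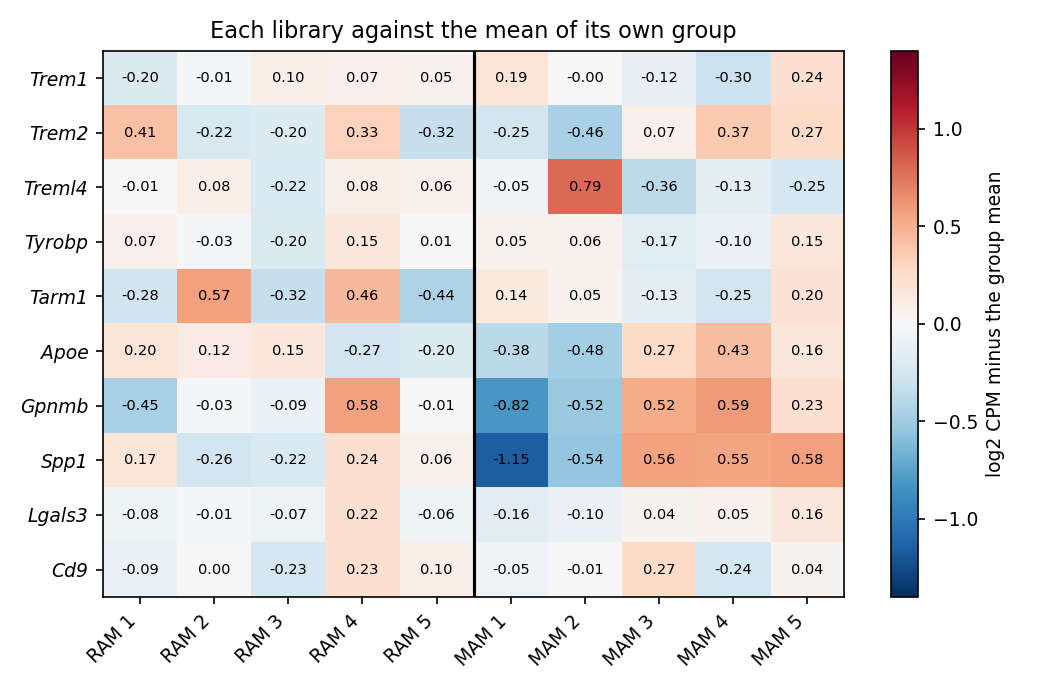
Log2 CPM of each gene in each library minus the mean of its own group (colour and printed value), RAM libraries on the left and MAM libraries on the right of the line. MAM replicates 1 and 2 are below their group mean for Apoe, Gpnmb, Spp1, Trem2 and Lgals3, with the lowest value at -1.15 for Spp1 in replicate 1, and Treml4 stands out at 0.79 in MAM replicate 2.

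The genes whose levels over the 10 libraries were most like those of Trem2 were found among the 8474 tested genes with a mean of at least 10 CPM, by the root mean square difference of log2 CPM after centring each gene. They were Rassf2 (difference 0.230, 169 CPM in MAMs against 22.7 in RAMs), Lamc1 (0.245, 133 against 21.8) and Emp1 (0.250, 593 against 78.2). Of the other 9 genes, Spp1 was nearest, at rank 123 with a difference of 0.459, and Gpnmb stood at rank 543. This likeness rests mostly on the difference between the groups and partly on the libraries within them.

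Markers of other cells were measured in the same libraries. The summed level of 8 epithelial and tumour cell markers was 10.6 to 24.1 CPM in MAM libraries but 590 to 702 in RAM libraries, with Krt19 the most abundant in both. For 7 lung epithelium markers it was 4.27 to 19.0 and 30.3 to 52.0 CPM, led by Sftpc. Stroma and endothelium markers summed to 41.1 to 94.6 CPM in MAMs, led by Kdr, and 2.11 to 12.3 in RAMs, led by Cdh5. Dendritic cell markers, led by Batf3 in MAMs and Clec9a in RAMs, summed to 8.39 to 19.4 and 20.3 to 30.2 CPM. Lymphocyte markers, led by Cd4 in MAMs and Cd79a in RAMs, summed to 11.2 to 21.2 and 4.34 to 17.3 CPM. Platelet markers summed to 349 to 1048 CPM in MAM libraries but 9.70 to 16.4 in RAM libraries, with Pf4 the most abundant in both. The sum of the epithelial and tumour cell markers was above the RAM means of Gpnmb, Lgals3, Spp1, Apoe and the 4 receptors. A sum over 8 genes set against the mean of 1 gene does not measure the amount of other cells. The epithelial and tumour cell sum also rested on few of its markers, as 5 of the 8 were under 1 CPM in RAMs. Krt19, Cdh1 and Epcam, with RAM means of 436, 131 and 76.8 CPM, made up most of it. The amount of epithelium in the RAM samples was not tested. The platelet sum was above the MAM means of Cd9 and the 4 receptors, and the same limit holds for it. The part of other cells in the differences of the 10 genes was not tested.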

How the data were processed

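RNA from 5 MAM and 5 RAM samples was sequenced as paired reads on an amplified cDNA kit. Per the labels, the submitters' processing notes name TopHat2 2.0.13, HTSeq 0.6.1, Cufflinks 2.2.1, DESeq2 1.6.3 and the build mm10. The authors deposited whole-number counts per gene, made against RefGene models and not normalized. The authors also deposited FPKM, computed with Cufflinks, in which depth and transcript length are divided out. FPKM columns were matched to libraries by title.

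Lines that name no gene held 54.6% to 58.3% of the lines in MAM libraries and 62.2% to 64.1% in RAM libraries. They were left out. Most were reads assigned to no feature of the gene models, so levels refer to reads counted on genes. Depth on genes was 50746305 to 87523247 counts. Limits for a count of 0 (3 counts) cover counting error only. Genes entered the test when they had any count and when FPKM averaged 1 or more in a group (11571 genes). They were tested with the quasi-likelihood test of edgeR 4.0.16 in R 4.3.3, TMM normalization, group as the only term and Benjamini-Hochberg adjustment. Calls used the thresholds of the study, adjusted p under 0.05 and fold change over 2. Log2 CPM used a prior count of 2. Single genes also had an exact permutation test over libraries. The fits (edgeR, also with a block and against a 2-fold difference, DESeq2 1.42.0 and limma 3.58.1) were tested on simulated data. Gene positions came from GENCODE M21 and promoters from RefSeq.

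The 10 genes and the 9 gene lists and 9 lists of cell type markers were chosen with earlier results of these data known. Named were the 10 genes, the TREM and MiT/TFE families, up to 3 genes of each other list with the largest increase and up to 3 with the largest decrease among those called, the most abundant gene of each cell type list, the 3 genes most like Trem2, and the sorting markers. Other genes are given as taken after their values were seen.

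The alternatives were DESeq2, scaling by RLE or by upper quartiles, filterByExpr or no filter, limma on FPKM in log2 with a pseudocount of 1 or 0.1, a block for the replicate number, subtraction of 1% of the level of the other group, a null hypothesis of a 2-fold difference, and leaving out single libraries. Replicate numbers were shared by the groups in name only.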

Additional observations from a re-analysis of the deposited data

Results flagged for a closer look

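Of the libraries, 2 stood far from the other 4 of their group, among 20 combinations of gene and group examined, and chance gives about 1 in 20. Treml4 in MAM replicate 2 was at 54.0 CPM, and its gap to the nearest library took a share of 0.732 of the range of log2 CPM over the 5 MAM libraries. Lgals3 in RAM replicate 4 was at 549 CPM, with a gap of 0.780 of the range over the 5 RAM libraries. Without the first library the log2 fold change of Treml4 changed sign, as given above, and without any one library that of Lgals3 stayed between 0.79 and 0.89.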

How the results depend on the processing

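Of 200 values, 10 genes under 20 alternatives each, 184 kept their direction and their side of the threshold of 0.05, 10 lost it, 3 gained it and 3 changed sign. Tarm1, Apoe, Trem2, Spp1 and Cd9 kept theirs under all 20, with 4 to 5 of the 10 genes called higher and 1 lower. Treml4 turned to -0.11 under upper-quartile normalization, to -0.000141 with the replicate number as a block, and ran from -0.20 to 0.15 when single libraries were left out. Tyrobp lost the threshold under 8 alternatives, among them limma on log2(FPKM + 1) (0.18, adjusted p = 0.213) and on log2(FPKM + 0.1) (0.18, adjusted p = 0.187). The adjusted p of Tyrobp ran from 0.0547 without MAM replicate 2 to 0.0786 without RAM replicate 3 among the 4 lost when a library was left out. Trem1 gained the threshold in 3. Against a fold change of 2, Gpnmb, Lgals3 and Tyrobp did not pass, 2 genes of adapter signalling were called lower, 2 of the ligands and sheddases higher and 2 of the osteopontin receptors higher. The ligands and sheddases called higher were 3 with no filter, with the block and with either limma fit, and 3 to 5 when a library was left out, with 0 to 1 called lower. Of the TREM family 0 to 1 were called lower when a library was left out, and under upper-quartile normalization 1 osteopontin receptor was called lower. That scaling moved the median log2 fold change of all genes from -0.02 to -0.18. The cause of these changes was not tested.

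Same-numbered libraries of the groups did not deviate together (correlations from -0.0366 to 0.0294), and not every library correlated best with its own number, so the numbers do not pair them. With the replicate block 3526 genes were called, against 3511 without it, and no call among the 10 genes changed. The lowest count of any of the 10 genes in a library was 25, for Tarm1, while Lat, Clu and Treml1 had as few as 0, 1 and 7.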
